A study of Mus musculus with 6 samples.

Results

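The genes described here are 8 genes of the glucocorticoid response, Fkbp5, Tsc22d3, Zbtb16, Sgk1, Dusp1, Nr3c1, Hsd11b1 and Hsd11b2, taken by their symbols from the 31053 genes listed with the counts. They were followed in stromal vascular cells of mouse inguinal white adipose tissue (iWAT), depleted of CD45+ immune cells and sequenced as single cells in 6 libraries, 1 for each age and temperature. The mice were C57BL/6 males, which the study names as aged 9 weeks (young) or 57 weeks (aged). Its methods give younger ages for when the animals were obtained, before the housing described next. All were first kept at 30 °C for 3 weeks. The thermoneutral groups (Young TN and Aged TN) then stayed at 30 °C for 2 weeks. The groups Young 3D cold and Aged 3D cold had 11 further days at 30 °C and then 3 days at 6 °C, and the groups Young 14D cold and Aged 14D cold had 14 days at 6 °C. Mice lived singly in the last 2 weeks of each regime. By the study's methods, animals were kept separate where nothing else was stated. They mention no pooling of animals for these libraries and give no number of mice per library. The sources used here do not say which of the 2 named suppliers (C57BL/6JN or C57BL/6J) an age came from. Age and supplier, if they differed, cannot be told apart.

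Glucocorticoids enter cells and bind the glucocorticoid receptor, encoded by Nr3c1, which moves to the nucleus and binds DNA at short inverted repeats. How much active hormone the receptor meets is set within the cell by 2 enzymes. Hsd11b1 regenerates active corticosterone from its inert 11-keto form, with cofactor made by H6pd, and is well known in adipose tissue, where glucocorticoids promote the differentiation of preadipocytes. Hsd11b2 carries out the opposite reaction and inactivates the hormone. The other 5 genes are known to be raised by the activated receptor. Fkbp5 is a co-chaperone that lowers the receptor's affinity for hormone, Tsc22d3 (GILZ) carries anti-inflammatory actions, Zbtb16 (PLZF) is a zinc finger transcription factor, Sgk1 is a kinase of ion transport and survival, and Dusp1 is a phosphatase that switches off MAP kinases and is also an immediate early gene.

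Promoter sequences are shown because the receptor and other regulated factors can bind there, though not only there. RefSeq's promoter table (GRCm38.p6, 250 bases before to 50 after each start site) held 12 promoters for 5 of the 8 genes, Fkbp5, Tsc22d3, Sgk1, Dusp1 and Hsd11b1. They were searched on both strands for the full glucocorticoid response element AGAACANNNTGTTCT, its half-site AGAACA (which lies within the full element) and the cAMP response element TGACGTCA. In the lines below these letters, or their reverse complement, are in capitals and the rest is in lower case.
Sgk1, chr10:21993640-21993939, plus strand: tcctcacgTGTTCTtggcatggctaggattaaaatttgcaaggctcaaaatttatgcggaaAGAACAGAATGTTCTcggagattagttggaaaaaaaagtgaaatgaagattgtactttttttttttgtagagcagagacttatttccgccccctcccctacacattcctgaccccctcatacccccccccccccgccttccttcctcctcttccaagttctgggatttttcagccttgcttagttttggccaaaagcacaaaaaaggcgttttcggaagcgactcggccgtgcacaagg
Tsc22d3, chrX:140600473-140600772, minus strand: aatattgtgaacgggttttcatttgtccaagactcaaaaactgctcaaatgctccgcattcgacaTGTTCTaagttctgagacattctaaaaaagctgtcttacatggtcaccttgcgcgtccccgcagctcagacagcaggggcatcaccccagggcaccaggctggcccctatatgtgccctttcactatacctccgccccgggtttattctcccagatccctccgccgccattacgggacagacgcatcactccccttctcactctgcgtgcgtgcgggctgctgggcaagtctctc
Dusp1, chr17:26508423-26508722, minus strand: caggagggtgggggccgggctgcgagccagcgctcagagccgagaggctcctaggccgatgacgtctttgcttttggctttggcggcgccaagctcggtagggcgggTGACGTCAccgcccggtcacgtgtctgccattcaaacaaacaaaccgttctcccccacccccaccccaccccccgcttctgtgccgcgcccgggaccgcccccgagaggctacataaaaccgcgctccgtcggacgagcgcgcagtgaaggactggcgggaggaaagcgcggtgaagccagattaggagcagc
Hsd11b1, chr1:193242311-193242610, minus strand: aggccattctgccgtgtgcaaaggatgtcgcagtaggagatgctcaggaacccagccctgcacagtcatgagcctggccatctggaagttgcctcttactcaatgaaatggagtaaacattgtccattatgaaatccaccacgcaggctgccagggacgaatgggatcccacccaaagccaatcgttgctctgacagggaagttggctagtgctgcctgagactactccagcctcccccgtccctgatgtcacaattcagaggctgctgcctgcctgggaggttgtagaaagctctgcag

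This Sgk1 promoter, 1 of the 6 listed for the gene, held the full element starting at base -189 from the start site, and a further half-site at -242. Of the other Sgk1 promoters, 2 held a half-site. Of the 32851 promoters in the table, 3 (0.00913%) held the full element. The Tsc22d3 promoter shown, 1 of 3, held a half-site at -185, and 19% of all promoters held one. The Dusp1 promoter held the cAMP response element at -143, which 1.79% of all promoters held. Neither the Hsd11b1 nor the Fkbp5 promoter held any of these letters. A match is a description of the letters in the window and not a binding site shown by these data. Sequence outside the window was not searched, so no match does not mean that a gene lacks such elements.

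The genes lie apart in the genome (GRCm38). Fkbp5 (ENSMUSG00000024222) spans chr17:28399094-28517527 on the minus strand, and Dusp1 (ENSMUSG00000024190) spans chr17:26505590-26562128 on the same chromosome and strand. Tsc22d3 (ENSMUSG00000031431) is at chrX:140539528-140600659, Zbtb16 (ENSMUSG00000066687) at chr9:48654297-48836222 and Hsd11b1 (ENSMUSG00000016194) at chr1:193221634-193264075, all on the minus strand. Sgk1 (ENSMUSG00000019970) is at chr10:21882184-21999903 and Hsd11b2 (ENSMUSG00000031891) at chr8:105518755-105523988, both on the plus strand. By position, Fkbp5, Dusp1 and Hsd11b1 overlap other annotated genes on the same strand, so reads there could be shared. Those partners are annotated as sense intronic, processed pseudogene or TEC (to be experimentally tested).

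The files held 68103 barcodes and 57326 passed the cell filter. The libraries held between 52068837 and 88508349 UMIs (molecular barcodes that count each captured transcript once). Aged 14D cold was the shallowest, with a median of 2741.5 UMIs per kept cell against 6726 to 9904 in the other 5. Cells were placed in classes by marker genes, none of which is among the 8. Of the kept cells, 20606 were Dpp4+ fibroblast-like, 17297 Icam1+ preadipocyte-like and 4040 Cd142+ fibroblast-like, named below as Dpp4+, Icam1+ and Cd142+ cells. A further 3914 were endothelial-like and 836 smooth muscle or pericyte-like (SMC/pericyte-like). Markers held back from the gate (such as Bmp7, Pparg, Vit, Flt1 and Tagln) were highest in their own class, for the 3 fibroblastic classes when compared among those 3 and for the other 4 when compared over all 7. Of the gated fibroblastic cells, 20.43% lay near the border, with their leading class score under 3 times the next. Any pair of libraries shared 0.38% of barcodes or less.

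UMIs were summed per library and class, and each such sum was counted as 1 sample. Levels are given as normalised CPM, on the counts-per-million scale of that sum with library sizes scaled by edgeR's TMM factors, and as raw CPM where that scaling was left out. Levels set between classes were scaled over the sums of all 5 classes together, so they differ somewhat from levels given within a class. The order of classes with close levels can also differ from that in raw CPM. A gene was called changed when edgeR's quasi-likelihood test gave a Benjamini-Hochberg adjusted p below 0.05 over all genes tested in that class. Age was tested with temperature as a term and temperature with age as a term, so age rested on 3 libraries against 3 and each temperature on 2. Temperature calls and their adjusted p come from the F test over both cold groups, also where 1 fold change stands beside them. Where the text says whether a single step between temperatures passed, that step's own adjusted p is given. Within 1 age, or for a difference of the cold response between ages, there was 1 library per group and no test. Some groups of libraries are said below not to overlap, or to lie all above or all below others. The share of all genes that did so was not counted, so such statements are description only. With 1 library per age and temperature there were no replicate libraries, and the fit of age and temperature left 2 residual degrees of freedom. Its p-values weigh each effect against how far these libraries depart from age and temperature effects that add together. They do not measure a spread between replicate libraries or mice.

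The 2 hormone-converting enzymes differed strongly between cell classes. Hsd11b1, which regenerates active hormone, had its highest mean level in Icam1+ cells at 494 CPM ± 134 (SD, n = 6 libraries). It followed at 217 CPM ± 56.6 in Cd142+ cells, 58.4 CPM ± 21.3 in Dpp4+ cells, 8.66 CPM ± 4.46 in SMC/pericyte-like cells and 5.94 CPM ± 3.44 in endothelial-like cells. The 3 fibroblastic classes did not overlap in any library, and each step among them passed the test (edgeR adjusted p = 1.31e-09 from Icam1+ to Cd142+ cells and 5.288e-14 from Cd142+ to Dpp4+ cells). The step from SMC/pericyte-like to endothelial-like cells did not (adjusted p = 0.202). With each cell thinned to 2000 UMIs, 51.9% of Icam1+ cells held an Hsd11b1 UMI (exact binomial 95% interval 51.1 to 52.7, counting error only), against 27.3% of Cd142+, 8.28% of Dpp4+ and 0.978% of endothelial-like cells. Before thinning the shares were 81.9%, 51.9%, 23% and 2.17%.

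Hsd11b2, which inactivates the hormone, was also highest in Icam1+ cells, at 35 CPM ± 22.3 (SD, n = 6). Cd142+ cells had 6.40 CPM ± 5.38, and the step between them passed the test (edgeR adjusted p = 2.437e-13). The remaining classes had means of 0.913 CPM or less and did not differ from their neighbours in the order (adjusted p = 0.555 and 0.56). In the thinned cells 4.77% of Icam1+ cells held a UMI of it, against 1.1% of Cd142+, 0.111% of Dpp4+ and 0.14% of endothelial-like cells. Before thinning these shares were 13.9%, 2.97%, 0.374% and 0.255%. In the thinned cells the Dpp4+ share was no higher than that of endothelial-like cells, and Dpp4+ levels are read as background.

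Of the 5 target genes, Sgk1 had the widest ratio of highest to lowest class mean. It was highest in endothelial-like cells at 886 CPM ± 127 (SD, n = 6), then 633 CPM ± 110 in Icam1+, 336 CPM ± 52.1 in Cd142+, 173 CPM ± 33.9 in Dpp4+ and 130 CPM ± 32.6 in SMC/pericyte-like cells. Every step in that order passed the test (edgeR adjusted p between 1.529e-08 and 0.00426). In pooled raw UMIs the last step was nearly absent, with Sgk1 at 154.7 raw CPM in Dpp4+ and 153.4 in SMC/pericyte-like cells. By library, SMC/pericyte-like cells had the higher raw CPM in Young 3D cold (150.5 against 147.7) and Aged 14D cold (184.9 against 147.9). Dpp4+ cells had it in Young TN, Young 14D cold, Aged TN and Aged 3D cold. The size of this step thus depends on the scaling. Zbtb16 had 159 CPM ± 37.7 in Dpp4+, 151 CPM ± 35.6 in Icam1+ and 129 CPM ± 25.9 in Cd142+ cells, where neither step between neighbours passed (adjusted p = 0.386 and 0.063), the second of them passing in the thinned cells (0.0317). Cd142+ cells were lower than Dpp4+ cells (log2 fold change -0.30, SE 0.09, edgeR adjusted p = 0.00639), whichever library was left out. It was lower in SMC/pericyte-like cells at 68.2 CPM ± 15.3 (adjusted p = 6.946e-08 against Cd142+ cells) and lowest in endothelial-like cells at 50.8 CPM ± 15.2. The step between the last pair (adjusted p = 0.0056) was not past the threshold in the thinned cells (adjusted p = 0.0826).

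Fkbp5, the co-chaperone, lay at 60.8 to 71.2 CPM in the 3 fibroblastic classes, where neighbours did not differ (edgeR adjusted p = 0.696 and 0.105), and was lower at 38.1 CPM ± 12.4 in endothelial-like and 26.6 CPM ± 6.79 in SMC/pericyte-like cells. The step to endothelial-like cells passed the test (adjusted p = 2.025e-06), and so did that to SMC/pericyte-like cells (adjusted p = 0.0166), though not without Young 3D cold (0.074). Tsc22d3 ranged from 145 CPM in endothelial-like to 211 CPM in Icam1+ cells, and among neighbours only the Cd142+ over Dpp4+ step passed (176 against 149 CPM, adjusted p = 0.042). That call did not hold without Young 3D cold (adjusted p = 0.0584), Young 14D cold (0.23) or Aged 14D cold (0.0855). Among pairs that are not neighbours, Icam1+ cells lay above Dpp4+ cells by 0.51 on the log2 scale (SE 0.09, edgeR adjusted p = 3.481e-05), whichever library was left out. In pooled raw UMIs the order of Tsc22d3 differed, so its highest and lowest class depend on the scaling. It was at 217 raw CPM in SMC/pericyte-like, 191 in Icam1+, 163 in endothelial-like, 159 in Cd142+ and 139 in Dpp4+ cells. Dusp1 was abundant in every class, from 867 CPM in SMC/pericyte-like to 1568 CPM in Cd142+ cells, with steps past the threshold below endothelial-like cells (adjusted p = 0.00348) and below Icam1+ cells (0.0254). The lower of these did not hold without Young TN (0.183), Young 14D cold (0.141) or Aged TN (0.108). It was also lost with RLE size factors (0.09) and in the thinned cells (0.0738). In pooled raw UMIs its direction was the other way, with Dusp1 at 1019 raw CPM in SMC/pericyte-like and 972 in Icam1+ cells.

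Nr3c1, the receptor (ENSMUSG00000024431), had the narrowest ratio of highest to lowest class mean, between 142 and 194 CPM, and no step between neighbours in its order passed (edgeR adjusted p between 0.0739 and 0.708). The step from endothelial-like to Cd142+ cells passed with RLE size factors (0.00614), in the thinned cells (0.0267), and without Young 3D cold (0.0414) or Young 14D cold (0.0175). Among the other pairs, endothelial-like cells were higher than Icam1+ (log2 fold change 0.30, SE 0.08, edgeR adjusted p = 0.00103) and Dpp4+ cells (0.19, SE 0.08, 0.0228), the latter not without Aged 14D cold (0.0655). SMC/pericyte-like cells were lower than endothelial-like (-0.46, SE 0.09, 6.751e-05), Cd142+ (-0.30, SE 0.09, 0.00416) and Dpp4+ cells (-0.26, SE 0.09, 0.00923). In the thinned cells neither of the last pair of these passed (0.0844 and 0.259), and the Dpp4+ call was also lost with RLE size factors (0.0821) and without Young TN (0.0738), Young 3D cold (0.0558) or Aged TN (0.0899). Over the 10 pairs of classes, 60 of 80 tests on the 8 genes passed. Such differences were common among all genes. Of 13148 genes tested, 63.3% differed between Icam1+ and Dpp4+ cells, 45.2% between Cd142+ and Dpp4+, 34.5% between Cd142+ and Icam1+, 77.5% between endothelial-like and Dpp4+ and 76% between endothelial-like and Icam1+ cells. The shares were 73.8% between endothelial-like and Cd142+, 61.3% between SMC/pericyte-like and Dpp4+, 56.9% between SMC/pericyte-like and Icam1+, 55.5% between SMC/pericyte-like and Cd142+ and 51.3% between SMC/pericyte-like and endothelial-like cells. Of the 8 genes, 5 differed in each pair of fibroblastic classes.

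**Figure D1:**
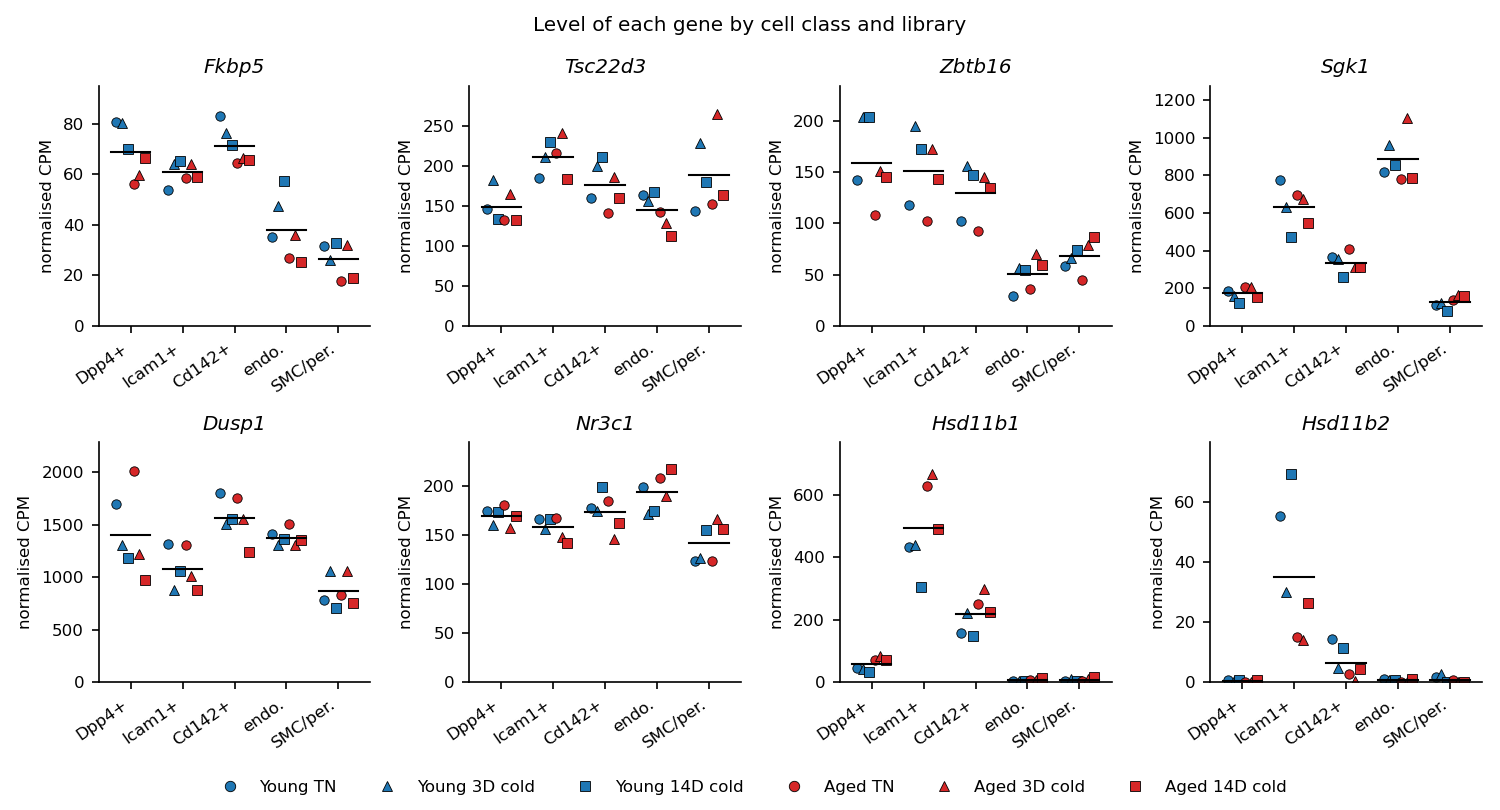
Normalised CPM (linear axes from 0) of each of the 8 genes in the 5 cell classes. Each point is 1 library, colour gives age, shape gives temperature and the bar is the mean of 6 libraries. Hsd11b1 falls from 494 CPM in Icam1+ cells to 5.94 CPM in endothelial-like cells, while Nr3c1 stays between 142 and 194 CPM.

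Aged mice were compared with young mice to find how the stromal cells that can give rise to beige adipocytes change with age. In all 3 fibroblastic classes Hsd11b1 was higher in aged mice. In Icam1+ cells, where it is most abundant, the young libraries held 389 CPM at TN, 394 at 3D cold and 274 at 14D cold. The aged libraries held 567, 595 and 440 CPM in the same order. The lowest aged library thus lay above the highest young one, and the log2 fold change was 0.61 (SE 0.07, edgeR adjusted p = 0.00203, n = 3 against 3), or 1.52 times the young level. In this class 2 of the 8 genes were called, where 11.1% of all genes tested were.

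In Dpp4+ cells the rise in Hsd11b1 was 0.96 on the log2 scale (SE 0.09, edgeR adjusted p = 0.000208), or 1.94 times. Young libraries held 42.5 CPM at TN, 37.9 at 3D cold and 30.5 at 14D cold, and aged libraries held 66.9, 79.2 and 67.7 CPM. The ages again did not overlap. In Cd142+ cells young libraries held 143, 199 and 134 CPM and aged libraries 224, 266 and 203 CPM, so the lowest aged value was just above the highest young one. The log2 fold change there was 0.56 (SE 0.09, adjusted p = 0.000732). The 3 calls kept their side of the threshold whichever library was left out (adjusted p at most 0.0211) and under a stricter gate (log2 fold changes of 0.61, 0.98 and 0.44 in Icam1+, Dpp4+ and Cd142+ cells).

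Hsd11b2 moved the opposite way with age. In Icam1+ cells the young libraries held 49.6 CPM at TN, 26.9 at 3D cold and 62.2 at 14D cold. The aged libraries held 13.7, 12.7 and 23.7 CPM, all below the lowest young library. The log2 fold change was -1.45 (SE 0.13, edgeR adjusted p = 0.001, n = 3 against 3), so the young level was 2.74 times the aged. In Cd142+ cells young mice gave raw sums of 72, 21 and 51 UMIs from TN to 14D cold, and aged mice 11, 2 and 14. The normalised levels there were 13.1, 4.16 and 10.4 CPM against 2.58, 0.513 and 3.92 CPM, which do not overlap but come close at young 3D cold and aged 14D cold. The log2 fold change was -2.01 (SE 0.31, adjusted p = 0.000787), and the Cd142+ class had 2 of 8 genes called where 10.3% of all genes were. Both calls held whichever library was left out (adjusted p at most 0.0256). In Dpp4+ cells the sums were 3 to 27 UMIs per library and no difference was detectable at this depth (log2 fold change -0.90, SE 0.44, adjusted p = 0.208).

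**Figure D2:**
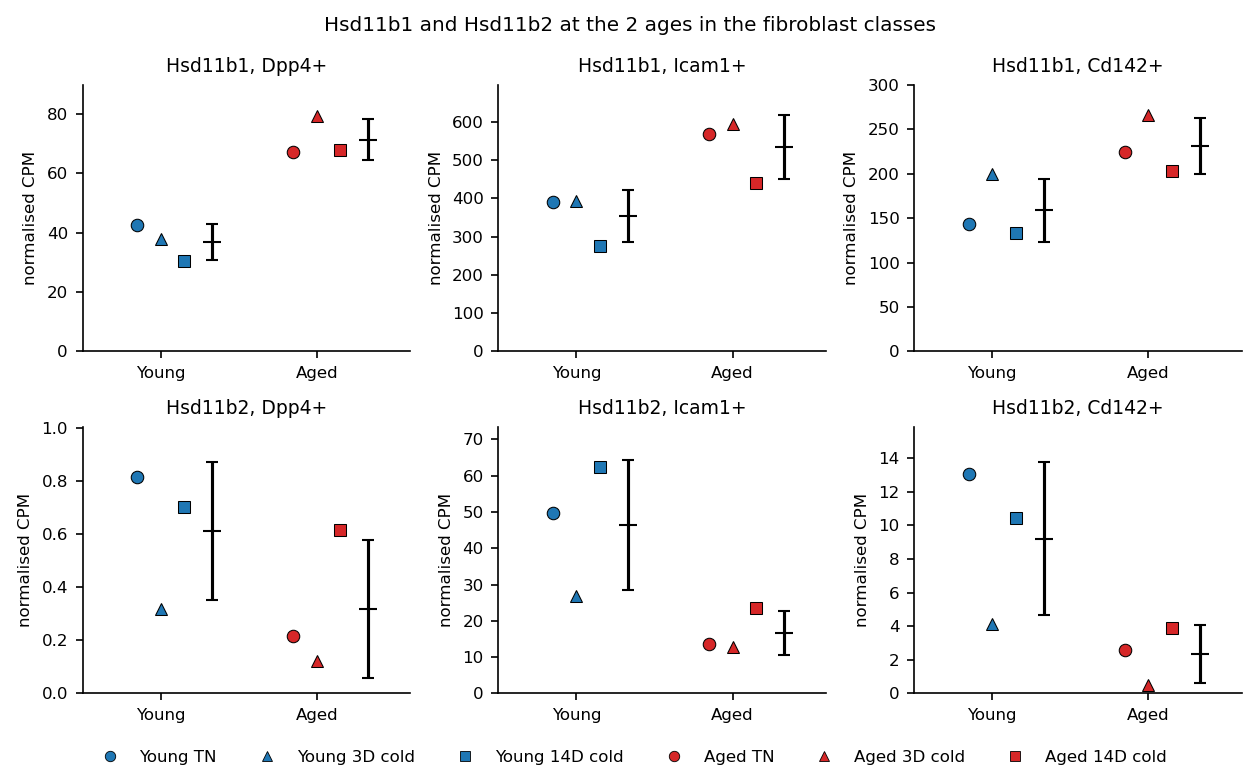
Normalised CPM (linear axes from 0) of Hsd11b1 (top) and Hsd11b2 (bottom) in the 3 fibroblastic classes, with 1 point per library and, beside them, the mean and SD of 3 libraries per age. Hsd11b1 is higher in every aged library than in any young one in each class, and Hsd11b2 is lower in every aged library in Icam1+ and Cd142+ cells.

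Adipocytes express Hsd11b1, and RNA of adipocytes also rose with age in these sums. Of 10 adipocyte genes (such as Adipoq and Cidec), 4 of the 8 tested were higher in aged Dpp4+ cells, 3 of 9 in Icam1+ cells and 2 of 4 in Cd142+ cells, and none was lower, where 15.6%, 11.1% and 10.3% of all genes were called in either direction. Their summed level in Dpp4+ cells was 11.4 to 17.9 raw CPM in young and 15.7 to 38.5 in aged libraries. In Icam1+ cells it was 46.9, 39.9 and 70.5 raw CPM in young and 34.1, 64.9 and 110 in aged libraries from TN to 14D cold. In Cd142+ cells it was 16.6 to 30.6 against 19.8 to 74.1, and Lep was at 0 in all 6 libraries. Of 11 macrophage genes, 2 of 5 tested were higher in aged Icam1+ cells (summed level 10.8 to 17.5 raw CPM in young and 19.4 to 37 in aged), 0 of 8 in Dpp4+ and 0 of 2 in Cd142+ cells. Red blood cell genes were higher in aged Dpp4+ cells for 5 of 5 and lower in aged Cd142+ cells for 4 of 4, with 0 of 5 called in Icam1+ cells. Their part in the Hsd11b1 and Hsd11b2 differences was not tested.

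Among the target genes, Zbtb16, Fkbp5 and Sgk1 were called with age in Dpp4+ cells. Zbtb16 was lower in aged Dpp4+ cells, with 132 CPM at TN, 188 at 3D cold and 190 at 14D cold in young libraries against 99.7, 140 and 135 CPM in aged. It was lower in 3 of 3 temperature pairs, although Aged 3D cold and 14D cold lay above Young TN. The log2 fold change was -0.44 (SE 0.06, edgeR adjusted p = 0.00109), and the call held whichever library was left out. In Icam1+ cells Zbtb16 had a log2 fold change of -0.22 (adjusted p = 0.0546) and in Cd142+ cells of -0.14 (adjusted p = 0.336), with 3 of 3 pairs lower in each. The Icam1+ value was past the threshold under the stricter gate (-0.25, adjusted p = 0.0402) and with clusters in place of the gate (-0.23, 0.0355), and the Cd142+ value with those clusters (-0.34, 0.0177).

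Fkbp5 was lower in aged Dpp4+ cells. Young libraries held 75.0 CPM at TN, 74.2 at 3D cold and 65.3 at 14D cold, and aged libraries 51.9, 55.4 and 61.7 CPM. The ages did not overlap, and the log2 fold change was -0.34 (SE 0.09, edgeR adjusted p = 0.027). This call did not hold without Young 3D cold (adjusted p = 0.0711) or Aged 3D cold (0.0731), nor with cells thinned to 2000 UMIs (0.0559). In Icam1+ cells the difference was -0.01 (adjusted p = 0.967) and in Cd142+ cells -0.24 (adjusted p = 0.117), where the ages did not overlap either.

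Sgk1 was higher in aged Dpp4+ cells, at 190, 193 and 145 CPM from TN to 14D cold against 174, 145 and 113 CPM in young. It was higher in 3 of 3 temperature pairs while the ages overlapped, with a log2 fold change of 0.30 (SE 0.07, edgeR adjusted p = 0.0212). The call did not hold without Young 3D cold (0.112), Young 14D cold (0.0869), Aged 3D cold (0.112) or Aged 14D cold (0.0542). In all, 4 of 8 genes were called with age in Dpp4+ cells (2 higher and 2 lower), where 15.6% of all 13237 genes tested were. Among 15 other immediate early and dissociation genes, 3 were higher and 3 lower with age in Dpp4+, 3 and 0 in Icam1+ and 4 and 1 in Cd142+ cells. Of the 13, 13 and 12 clock genes tested there, 3, 1 and 0 were higher and none lower. Of all genes, 15.6%, 11.1% and 10.3% were called in these classes. Tsc22d3, Dusp1 and Nr3c1 were not called with age in any class, with log2 fold changes between -0.38 and 0.14. In Cd142+ cells Tsc22d3 was called under the stricter gate (-0.36, edgeR adjusted p = 0.0296) and with clusters in place of the gate (-0.36, 0.00798). When 1 library is left out of these fits, its partner at the same temperature no longer informs the age value, which then rests on 2 temperature pairs.

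An age call in 1 class and not in another does not show that the classes differ, so the age effects were compared directly. Of 24 tests (8 genes in the 3 pairs of fibroblastic classes, edgeR with library as a block), 0 passed, with 7 at an unadjusted p under 0.05 and no other tool run. Over all genes, 1.59% passed for Icam1+ against Dpp4+ cells, 1.52% for Cd142+ against Dpp4+ and 0.992% for Cd142+ against Icam1+. The lowest adjusted p was that of Zbtb16, whose age effect was 0.31 higher on the log2 scale in Cd142+ than in Dpp4+ cells (SE 0.08, adjusted p = 0.0877). The rise in Hsd11b1 was smaller by 0.39 in Cd142+ than in Dpp4+ cells (log2 difference -0.39, SE 0.13, adjusted p = 0.198), and this difference passed the threshold when Young TN was left out (-0.57, adjusted p = 0.00901).

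In endothelial-like cells 0 of the 7 genes tested passed with age (edgeR; 3 at an unadjusted p under 0.05, and 0 with DESeq2), where 1.66% of all genes did. These 3 were Fkbp5, Tsc22d3 and Hsd11b1. The share of all genes at such an unadjusted p was not counted for any class or comparison, so these counts are description only. Fkbp5 was at 40.2, 54.6 and 65.1 CPM in young and 30.1, 40.2 and 28.3 CPM in aged libraries from TN to 14D cold (log2 fold change -0.65, SE 0.16, adjusted p = 0.0583). It passed without Young TN (adjusted p = 0.0167), Aged TN (0.0183) or Aged 3D cold (0.00538). Tsc22d3 had a log2 fold change of -0.38 (SE 0.10, adjusted p = 0.0777), which passed without Young TN (0.0216) or Aged TN (0.0261). Hsd11b1 rested on 7 to 29 UMIs per library (log2 fold change 1.17, SE 0.33, adjusted p = 0.105), and in clusters in place of the gate its log2 fold change was 0.12. The adipocyte genes summed to 573 to 1359 raw CPM in young and 1090 to 2288 in aged endothelial-like cells, and their part in it was not tested.

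In SMC/pericyte-like cells, with 91 to 287 cells per library, 0 of 6 genes passed with age (edgeR; 1 at an unadjusted p under 0.05, Sgk1 at a log2 fold change of 0.54, adjusted p = 0.273), where 0.291% of all genes did. DESeq2 called 0 and gave 4 of them no adjusted p.

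**Figure D3:**
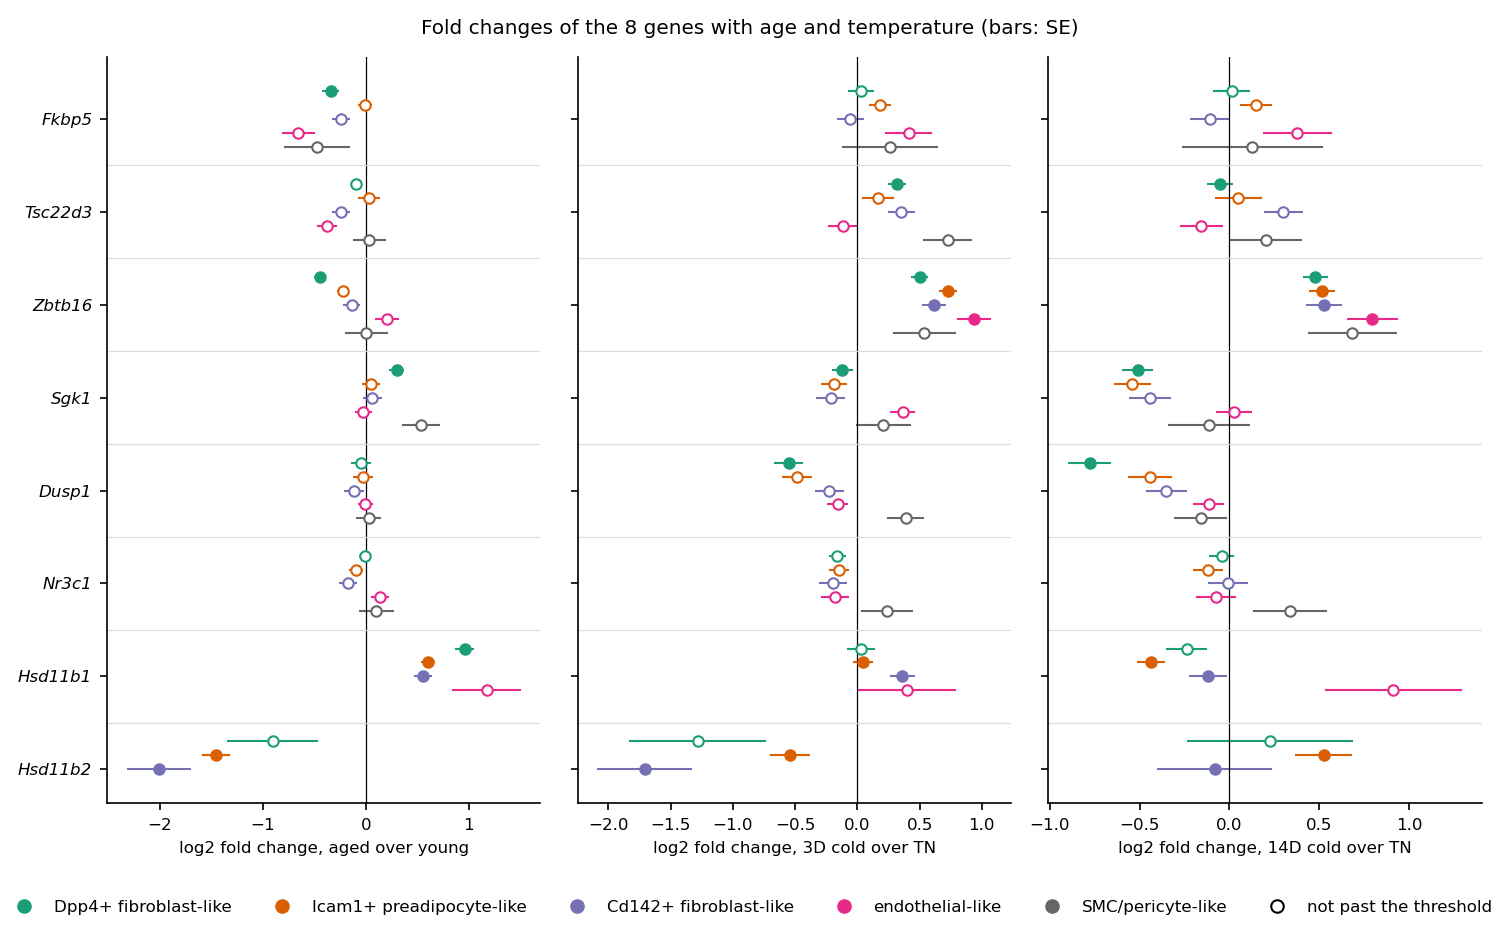
Log2 fold changes with SE for age, 3D cold over TN and 14D cold over TN, for each gene and class. Filled points are past the threshold, in the cold panels by the F test over both cold groups, and a class without a point had too few UMIs for the test. With age Hsd11b1 and Hsd11b2 lie on opposite sides of 0, and Zbtb16 lies above 0 in both cold panels in all 5 classes.

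Cold exposure was accompanied by a rise of Zbtb16 in 4 of the 5 classes. In Icam1+ cells it went from 106 CPM at TN to 174 at 3D cold and 156 at 14D cold in young mice, and from 92.3 to 154 and 128 CPM in aged mice. All 4 cold libraries lay above both TN libraries. The log2 fold changes over TN were 0.73 at 3D (SE 0.07) and 0.51 at 14D (SE 0.07), with an edgeR adjusted p of 0.00942 for the F test over both.

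In Dpp4+ cells the log2 fold changes of Zbtb16 were 0.50 (SE 0.07) at 3D and 0.48 (SE 0.07) at 14D (edgeR adjusted p = 0.0107), and in Cd142+ cells 0.61 (SE 0.10) and 0.53 (SE 0.10, adjusted p = 0.00656). In endothelial-like cells Zbtb16 went from 33.7 CPM at TN to 64.4 and 61.7 CPM in young mice and from 40.2 to 77.5 and 66.0 CPM in aged mice. This was the largest log2 fold change of the 4 classes, at 0.94 (SE 0.14) and 0.79 (SE 0.14, adjusted p = 0.0117). In SMC/pericyte-like cells the values were 0.54 (SE 0.25) and 0.68 (SE 0.25) without a call (adjusted p = 0.558). In each of the 5 classes all 4 cold libraries lay above both TN libraries, and no class showed a step from 3D to 14D past the threshold (adjusted p between 0.238 and 0.98).

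The size of the Zbtb16 rise was steady, while the calls were less so. The call in Icam1+ cells did not hold without Young 3D cold (adjusted p = 0.0547) or Aged 3D cold (0.0807), that in Cd142+ cells without Young TN (0.075) or Aged TN (0.103) or in the thinned cells (0.0575), and that in endothelial-like cells without Aged TN (0.0587), in the thinned cells (0.0527), with clusters in place of the gate (0.0523) or with DESeq2 (0.267). The call in Dpp4+ cells held whichever library was left out. Beside it, clock genes also moved with temperature. In Dpp4+ cells 7 of 13 were called and 0 of those were lower on average in cold, and in Icam1+ cells 3 were higher and 1 lower, where 4.32% and 3.22% of all genes tested were called. Dbp, an output gene of the circadian clock, was at 3.17, 22.3 and 3.23 CPM in young Dpp4+ cells from TN to 14D cold and at 5.80, 24.98 and 8.33 CPM in aged. The sources used here give no time of day of tissue collection, and the part of the clock in the Zbtb16 rise was not tested.

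**Figure D4:**
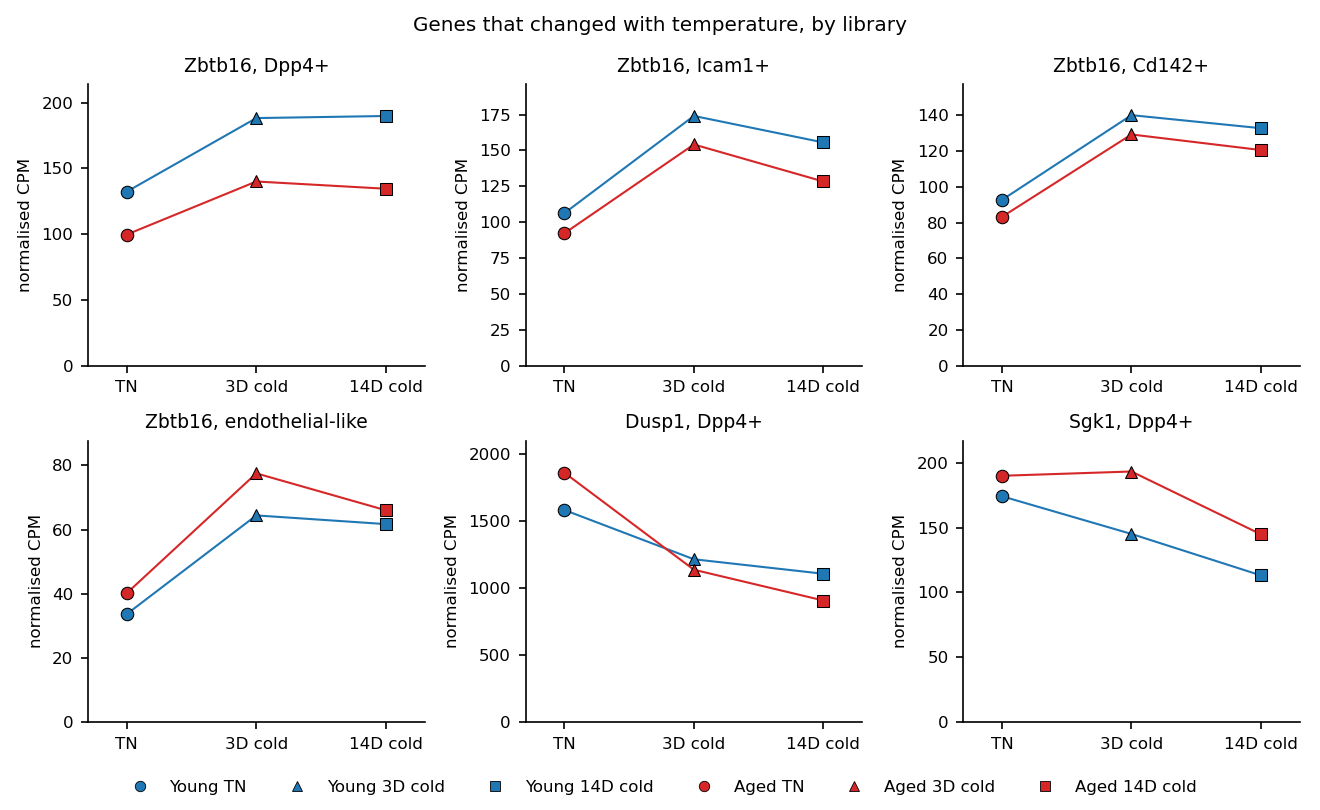
Normalised CPM (linear axes from 0) at TN, 3D cold and 14D cold for Zbtb16 in 4 classes and for Dusp1 and Sgk1 in Dpp4+ cells, 1 point per library, with lines joining libraries of 1 age. Zbtb16 is higher in every cold library than in either TN library, and Dusp1 is lower.

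Of the 8 genes, 4 were called with temperature in Dpp4+ cells, where 4.32% of all genes were, and these were Zbtb16, Dusp1, Sgk1 and Tsc22d3. Dusp1, the MAP kinase phosphatase, fell in cold. It was at 1579 CPM at TN, 1212 at 3D cold and 1104 at 14D cold in young mice and at 1857, 1134 and 905 CPM in aged mice, with all cold libraries below both TN libraries. The log2 fold changes were -0.55 (SE 0.12) and -0.78 (SE 0.12, edgeR adjusted p = 0.0184), and the call held whichever library was left out (adjusted p at most 0.0108).

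Dusp1 was lower in all 4 cold libraries than in both TN libraries in Icam1+, Cd142+ and endothelial-like cells too, without a call (edgeR adjusted p = 0.0921, 0.265 and 0.71). In Icam1+ cells the log2 fold changes were -0.48 and -0.44, called with DESeq2 (adjusted p = 0.00385), in the thinned cells (0.045), and when Young 14D cold (0.0171) or Aged 14D cold (0.0471) was left out. Dusp1 is also raised when tissue is dissociated. Of 15 other immediate early and dissociation genes, 1 was called with temperature in Dpp4+ cells (Ier2, mean log2 change in cold -0.46, adjusted p = 0.0168), the median of the 15 was -0.18, and 0 were called in Icam1+ or Cd142+ cells. Their summed level in Dpp4+ cells was lowest in Aged 14D cold, at 18380 raw CPM, and highest in Aged TN, at 24970, and its part in the fall of Dusp1 was not tested.

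Sgk1, the kinase, was lower after 14 days in Dpp4+ cells, with log2 fold changes of -0.12 (SE 0.09) at 3D and -0.51 (SE 0.09) at 14D (adjusted p of the F test over both = 0.0281 by edgeR). This did not hold without Young 14D cold (adjusted p = 0.105). In Icam1+ cells the young libraries held 700, 565 and 424 CPM from TN to 14D cold and the aged libraries 629, 603 and 491 CPM, lower in all 4 cold libraries than in both TN libraries but not called (log2 fold change at 14D -0.54, adjusted p = 0.0628). It was called there with DESeq2 (adjusted p = 0.00208) and without Aged 14D cold (0.0296). In Cd142+ cells Sgk1 was also lower in all cold libraries than in both TN libraries without a call. With clusters in place of the gate it was called there (log2 fold change at 14D -0.54, edgeR adjusted p = 0.0277). In endothelial-like cells, where Sgk1 is highest, the log2 fold change at 3D was 0.36 (SE 0.10) and at 14D 0.02 (adjusted p = 0.157). That change was called in the thinned cells (0.46 at 3D, edgeR adjusted p = 0.0357) and without the filter on low counts (0.34, 0.0146). The difference between endothelial-like and fibroblastic cells was not tested.

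Tsc22d3 was highest at 3D cold in Dpp4+ cells. Its levels were 135, 168 and 125 CPM in young and 122, 153 and 123 CPM in aged libraries from TN to 14D cold, so that at each age 3D cold stood above both others. The log2 fold change was 0.32 (SE 0.07) at 3D over TN and -0.05 (SE 0.07) at 14D (adjusted p of the F test over both = 0.0368 by edgeR). The call did not hold without Young 3D cold (adjusted p = 0.199), Aged 3D cold (0.1) or Young 14D cold (0.0564). Fkbp5 was not called with temperature in any class (adjusted p between 0.384 and 0.975), although in Icam1+ cells all cold libraries lay above both TN libraries.

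The hormone-converting enzymes changed with temperature in Icam1+ and Cd142+ cells. In Icam1+ cells, where 3 of 8 genes were called against 3.22% of all genes, Hsd11b1 was lower at 14D cold than at 3D cold (log2 fold change -0.48, SE 0.08, adjusted p of the F test = 0.0345 by edgeR). Hsd11b2 was higher at 14D than at 3D (log2 fold change 1.06, SE 0.16, F test adjusted p = 0.033), and neither differed from TN past the threshold (adjusted p = 0.799 and 0.0541 for Hsd11b1, 0.101 and 0.174 for Hsd11b2). At both ages Hsd11b1 was lowest and Hsd11b2 highest at 14D cold. The Hsd11b1 call did not hold without Young 3D cold (0.144), Young 14D cold (0.0914), Aged TN (0.0503) or Aged 3D cold (0.16), and the Hsd11b2 call without Young 3D cold (0.13).

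In Cd142+ cells 3 of 8 genes were called against 2.07% of all genes. Hsd11b1 was highest at 3D cold at both ages (143, 199 and 134 CPM in young and 224, 266 and 203 CPM in aged from TN to 14D cold, edgeR F test adjusted p = 0.0469). Hsd11b2 was lowest at 3D cold at both ages (log2 fold change over TN -1.71, SE 0.38, adjusted p of the F test over both cold groups = 0.0487). The Hsd11b1 call did not hold with DESeq2 (0.102) or without Young TN (0.0625), Young 3D cold (0.605), Aged TN (0.0561) or Aged 3D cold (0.112). The Hsd11b2 call did not hold without Young TN (0.162), Young 3D cold (0.373), Aged TN (0.0627) or Aged 3D cold (0.119). With a library left out, the log2 fold change of Hsd11b2 at 3D cold lay between -2.62 and -1.29. It was also not called under the stricter gate (-1.57, adjusted p = 0.287) or in the thinned cells, where it was -0.71 (0.664).

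In endothelial-like cells 1 of 7 genes was called with temperature, Zbtb16, where 1.12% of all genes were. In SMC/pericyte-like cells 0 of 6 were (edgeR; 3 at an unadjusted p under 0.05, namely Tsc22d3, Zbtb16 and Dusp1, and 0 with DESeq2), where 0.408% of all genes were. Tsc22d3 there had a log2 fold change of 0.72 (SE 0.19) at 3D cold (adjusted p = 0.266), called without Young 14D cold (0.0353) or Aged 14D cold (0.0322), and Dusp1 was called without Aged TN (0.0497).

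Nr3c1, the receptor itself, was not called with age or temperature in any class, with age log2 fold changes between -0.17 and 0.14 and adjusted p of 0.269 or more. In Dpp4+ cells it held 162, 149 and 162 CPM in young and 167, 146 and 158 CPM in aged libraries from TN to 14D cold. Before rounding, all cold libraries lay below both TN libraries there, and in SMC/pericyte-like cells all lay above both. Of 12 further genes of the receptor's machinery (chaperones such as Hsp90aa1, coregulators such as Nrip1, the related receptor Nr3c2 and H6pd), 1 was higher with age in Dpp4+ cells, where 15.6% of all genes were called, 1 higher and 1 lower in Icam1+ cells (11.1%) and 1 and 1 in Cd142+ cells (10.3%), and 0 in endothelial-like or SMC/pericyte-like cells (1.66% and 0.291%). Their median log2 fold changes were -0.03, 0.10 and 0.07 in Dpp4+, Icam1+ and Cd142+ cells, where the medians of all genes lay between -0.0028 and 0.0056.

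Nr3c2, the mineralocorticoid receptor, which also binds corticosterone, was the one that rose in aged Dpp4+ cells, from a mean of 3.29 to 6.06 CPM (log2 fold change 0.90, SE 0.14, edgeR adjusted p = 0.00257). It had 5.33 against 2.58 CPM in Cd142+ cells (1.05, adjusted p = 0.0533). Hsp90aa1, the chaperone that holds the receptor ready for hormone, was higher with age in Icam1+ (0.34, adjusted p = 0.0265) and Cd142+ cells (0.29, 0.0363). The corepressor Nrip1 was lower in both (-0.31, 0.0375 and -0.45, 0.00342). H6pd, which supplies Hsd11b1 with cofactor, was not called with age, with 76.5 against 67.5 CPM in Icam1+ cells (0.17, SE 0.07, adjusted p = 0.162). With temperature 1 of the 12 was called, Fkbp4, in Dpp4+ cells (mean log2 change in cold 0.20, adjusted p = 0.0419).

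A further 29 known glucocorticoid targets were called in both directions with age. In Dpp4+ cells 2 were higher and 6 lower of 29 tested, where 15.6% of all genes were called, in Icam1+ cells 4 higher and 1 lower of 28 (11.1% of all genes), and in Cd142+ cells 3 and 3 of 28 (10.3%). Their medians were 0.12, -0.004 and 0.08 on the log2 scale, and those of all genes between -0.0028 and 0.0056. Pik3r1, a regulatory subunit of PI3 kinase, was lower in aged Dpp4+ (-0.51, edgeR adjusted p = 0.000459) and Cd142+ cells (-0.49, 0.00496). Tgm2, a transglutaminase, was higher in aged Dpp4+ (0.73, 0.0338) and Icam1+ cells (0.78, 0.00848). Per1, a clock gene that the receptor raises, was not called with age or temperature in any class. Klf9, another early target, was not called either, and in Dpp4+ cells had a log2 fold change of 0.31 at 3D cold (adjusted p = 0.0915).

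With temperature the further targets were called for 2 higher and 4 lower in Dpp4+, 1 and 3 in Icam1+, 1 and 1 in Cd142+ and 1 and 0 in endothelial-like cells, by the mean of both cold groups, where 4.32%, 3.22%, 2.07% and 1.12% of all genes were called. In Dpp4+ cells Pdk4, a kinase that limits glucose oxidation, was higher in cold (mean log2 change 0.68, edgeR adjusted p = 0.0141), and Bcl6 (-0.77, 0.00244), Ddit4 (-0.91, 0.0407) and Tgm2 (-1.22, 0.0208) were lower. Ddit4 was also lower in Icam1+ cells (-0.73, 0.0498), as was Crispld2 (-0.83, 0.00836). Of 15 inflammatory genes that glucocorticoids are known to lower, 4 were higher and 2 lower with age in Dpp4+ cells, 2 and 2 in Icam1+ cells and 2 and 0 in Cd142+ cells, of 11 tested in each, where 15.6%, 11.1% and 10.3% of all genes were called. Their medians were 0.30, 0.07 and 0.24 on the log2 scale. The chemokine Cxcl2 was higher in aged Dpp4+ (1.25, 0.00332) and Icam1+ cells (0.56, 0.00968), and Cxcl10 was lower in both (-0.47, 0.0237 and -0.90, 0.0185). With temperature 1 of them was higher and 2 lower in Dpp4+, 2 and 0 in Icam1+ and 0 and 1 in Cd142+ cells, with Ccl2 higher in cold in Dpp4+ (0.60, adjusted p = 0.0323) and Icam1+ cells (0.83, 0.0247).

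The genes whose levels ran most like each of the 8, by Pearson's r over the 18 sums of the 3 fibroblastic classes, each centred on its class mean, were for Hsd11b1 9930111J21Rik2 (r 0.95), Rnf217 (0.94) and Eps8 (0.94). For Hsd11b2 they were Tmem167 (0.92), Ifi27l2a (0.92) and Ly6e (0.92), and for Zbtb16 Iscu (0.93), Ttc19 (0.91) and Igfbp3 (0.88). Dusp1 ran most like Fos (0.89) and Rab30 (0.87), and Sgk1 like Lsmem1 (0.89), Adamts1 (0.87) and Gli3 (0.83). Nr3c1 ran most like 1110038F14Rik (0.92), Gatd1 (0.91) and Col27a1 (0.88), Fkbp5 like Chchd7 (0.86), Abcc9 (0.82) and Ikbip (0.80), and Tsc22d3 like Sar1b (0.77) and Cdadc1 (0.76). Tsc22d3 thus had the least close neighbours. The 18 sums share 6 libraries, 5543 genes with a mean of 20 CPM or more were compared, and these values describe likeness only.

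With the 3 fibroblastic classes summed together, 3 of 8 genes were called with age (Zbtb16, Hsd11b1 and Hsd11b2), where 10.6% of all genes were, and 4 with temperature (Zbtb16, Sgk1, Hsd11b1 and Hsd11b2), where 1.55% were. These sums mix levels with the make-up of each library. Aged TN held 3250 Icam1+ and 1906 Dpp4+ cells, and Young TN held 2152 and 3396. The classes with too few cells for tests had 114 Schwann-like and 250 immune-like cells over all libraries. In pooled raw UMIs Tsc22d3 was at 388 raw CPM in Schwann-like cells (exact Poisson 95% interval 328 to 457, counting error only) and 256 in immune-like cells (233 to 281), against 139 to 217 in the 5 larger classes. Zbtb16 was at 7.93 (1.64 to 23.2) and 11.5 (7.02 to 17.8) raw CPM there, against 54.3 to 154 in the 5 larger classes.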

How the data were processed

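Single-cell libraries were made with the 10x Chromium 3′ chemistry from live, CD45-depleted stromal vascular cells digested from iWAT with its lymph node removed, 1 library for each of the 6 groups. The authors aligned reads to mm10 with Cell Ranger and deposited counts of UMIs per gene and barcode, without normalisation. Their notes also name R 4.1.1 and Seurat, whose later filters and integration are not in these counts.

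Cells had to show more than 200 genes and to lie within 3 scaled median absolute deviations of their library's median for log10 total UMIs and log10 genes, and no more than 3 above it for mitochondrial share. Cells were placed in classes by marker genes, and a fibroblastic class needed a score at least 1.5 times the next. Cells near a border (7598), with markers of 2 lineages (1756) or with too few markers (915) were left out. No doublet caller was run. The gate's thresholds were chosen after the marker distributions were seen. Sums per library and class were tested with edgeR 4.0.16 in R 4.3.3 (TMM, filterByExpr, quasi-likelihood F tests, Benjamini-Hochberg adjustment). Class differences used library as a term. The 8 genes and the gene lists were chosen with earlier results of these data known. All 8 genes are named. Of other genes, those named are at most the 3 with the largest change in each direction among the called genes of a list and comparison, Per1, Klf9, Nr3c2 and H6pd whatever they did, and the 3 most like each of the 8. A few genes that this rule would name are not reported here. Library totals ranged from 52068837 to 88508349 UMIs. Intervals cover counting error only. The test steps were checked on simulated counts.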

Additional observations from a re-analysis of the deposited data

How the results depend on the processing

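The alternatives were DESeq2 1.42.0, RLE size factors, no filter on low counts, no second term, cells thinned to 2000 UMIs (which left out 3970 cells of Aged 14D cold and 319 of Aged TN), a fixed cell filter (1000 to 7000 genes, at most 10% mitochondrial UMIs), a stricter gate and 17 clusters in place of the gate. No result changed direction with a call. The counts of calls below are for the genes described here alone. The share of all genes called under each alternative is not given. A loss or gain of calls is therefore not shown to be particular to these genes. Without a second term, the age calls went from 4 to 1 in Dpp4+, 2 to 0 in Icam1+, 2 to 0 in Cd142+ and 3 to 1 in summed fibroblastic cells, and the temperature calls from 4, 3, 3, 4 and 1 to 0 in each of Dpp4+, Icam1+, Cd142+, summed fibroblastic and endothelial-like cells. The spread between temperatures or ages then enters the error, and its part in these losses was not tested. Age calls were 4 in Cd142+ cells with clusters, and 3 without the filter and 1 with the fixed cell filter in endothelial-like cells. Temperature calls were 5 in Icam1+, 1 in Cd142+ and 0 in endothelial-like cells with DESeq2, 5 in Icam1+ and 2 in endothelial-like cells without the filter, 1 in thinned Cd142+ cells, 0 in endothelial-like cells with clusters and 1 in SMC/pericyte-like cells with the fixed cell filter. The causes of the other shifts were not tested. With each library left out in turn, age calls ranged from 2 to 4 in Dpp4+, 2 to 2 in Icam1+ and in Cd142+, 2 to 3 in summed fibroblastic, 0 to 2 in endothelial-like and 0 to 0 in SMC/pericyte-like cells. Temperature calls ranged from 2 to 5 in Dpp4+, 0 to 5 in Icam1+, Cd142+ and summed fibroblastic, 0 to 2 in endothelial-like and 0 to 1 in SMC/pericyte-like cells, class calls from 57 to 59 and calls of the difference in age effect from 0 to 1. No paired analysis was possible because the labels give no replicate numbers by which to pair libraries and each group is 1 library. The age tests already held temperature, and the class tests library, as a term. Depth limits Hsd11b2 outside Icam1+ cells.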
